A study of Mus musculus with 20 samples.

Results

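The 8 genes described here are Il33, the other alarmins of the epithelium Il1a, Il18, Tslp and Hmgb1, the antagonist Il1rn, the IL-33 receptor Il1rl1 and its co-receptor Il1rap. They were chosen by symbol and all 8 were found among the 55471 genes of the count table. RNA was sequenced from WT mice in 4 groups of 5 libraries each, and the strain is given in the methods as C57BL/6. For the skin, mice of both sexes aged 4 to 6 weeks were sensitized on the abdomen with 0.5% and, 2 days later, 0.25% DNFB, a contact allergen, and from 5 days after that were challenged on the back with 0.25% DNFB 3 times per week for 22 days. Control mice received the acetone vehicle, whether they had been sensitized is not given in the sources used here, and the epidermis of the back was taken. For the pancreas, caerulein, a secretagogue that causes pancreatitis, was injected at 50 µg/kg hourly, 6 times a day on 3 days per week for 3 weeks, and controls received PBS. The age of the mice in the pancreas protocol is not given in the sources used here. The paper's methods for that protocol do not state their sex either. Both preparations were lysed whole. The methods describe the skin material as isolated epidermis, whereas the main text describes it as keratinocytes isolated from the epidermis, and markers of other cell types were detected in it.

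Alarmins are proteins that epithelial and stromal cells hold ready and release when they are damaged or stressed. IL-33 is stored in the nucleus and, once outside the cell, binds ST2, the product of Il1rl1, which pairs with the accessory protein encoded by Il1rap and signals through MyD88 in mast cells, group 2 innate lymphoid cells and T helper 2 cells. IL-1α and IL-36 proteins use related receptors that share the same accessory protein, IL-18 uses its own receptor pair, and the IL-1 receptor antagonist encoded by Il1rn occupies the IL-1 receptor without signalling. TSLP acts through a receptor built with Crlf2, and HMGB1 is a nuclear chromatin protein that is read by Toll-like receptors and Ager when it leaves the cell.

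The series held between 791491 and 2232039 counts per library, of which 37.5 to 93.3% fell on 8 satellite-like predicted genes, so that 82322 to 1080226 counts per library remained for all other genes. Acetone libraries 11 and 12 kept 1080226 and 946393 such counts, against 102166 to 158977 in the other acetone libraries. The keratinocyte markers summed to 352 to 3634 normalized CPM (counts scaled to library size with TMM factors) in acetone epidermis and 276 to 2734 in DNFB epidermis, and 0 of the 10 markers were without counts in either group. The acinar markers summed to 9484 to 74550 normalized CPM in PBS pancreas and 833 to 9370 in caerulein pancreas. The labels do not say whether the 5 libraries of a group came from separate mice, so the p-values measure the spread between these libraries only.

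The upstream windows of the 3 members that passed the exact test in skin are shown because they let the start sites of Il33, Il1a and Il1rn be compared. The windows hold the 250 bases before each RefSeq start in GRCm38.p6, which covers 7 of the 8 members in 12 windows. Capitals mark matches, on either strand, to TATAAA (the TATA box) and TGANTCA (AP-1), and the windows were also searched for an NF-kB consensus and for the core of an interferon-response element. Il33 has 2 starts, at chr19:29924863-29925112 and chr19:29945540-29945789 on the plus strand, Il1a has 1 at chr2:129309973-129310222 on the minus strand, and the first of 3 Il1rn windows lies at chr2:24336610-24336859 on the plus strand. Each sequence runs 5′ to 3′ towards the start.
Il33 first start: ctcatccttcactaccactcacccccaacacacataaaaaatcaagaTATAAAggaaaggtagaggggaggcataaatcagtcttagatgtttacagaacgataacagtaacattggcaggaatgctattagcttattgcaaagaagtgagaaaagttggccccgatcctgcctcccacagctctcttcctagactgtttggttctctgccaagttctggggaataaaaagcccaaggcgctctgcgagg
Il33 second start: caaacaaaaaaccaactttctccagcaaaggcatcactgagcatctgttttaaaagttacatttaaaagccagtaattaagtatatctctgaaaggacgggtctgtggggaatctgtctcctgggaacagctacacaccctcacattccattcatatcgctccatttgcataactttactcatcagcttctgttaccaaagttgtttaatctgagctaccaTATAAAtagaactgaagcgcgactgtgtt
Il1a start: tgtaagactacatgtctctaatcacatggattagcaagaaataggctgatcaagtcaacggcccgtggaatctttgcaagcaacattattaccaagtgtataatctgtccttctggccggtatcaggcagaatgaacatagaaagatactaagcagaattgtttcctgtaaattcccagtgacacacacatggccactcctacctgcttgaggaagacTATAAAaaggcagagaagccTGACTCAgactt
Il1rn first start: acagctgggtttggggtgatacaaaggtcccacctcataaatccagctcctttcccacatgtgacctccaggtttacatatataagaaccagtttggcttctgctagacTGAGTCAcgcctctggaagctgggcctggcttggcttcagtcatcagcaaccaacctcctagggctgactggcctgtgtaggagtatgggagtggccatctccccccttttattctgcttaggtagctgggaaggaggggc

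TATAAA begins 203 bases before the first Il33 start, 29 bases before the second and 32 bases before the Il1a start. It was found in 4 of the 12 member windows and in 12.4% of all 32851 windows of this length. The AP-1 letters lie 12 bases before the Il1a start and 141 bases before the first Il1rn start, in 2 of the 12 windows, and in 6.75% of all windows. The NF-kB consensus was matched in 1 of the 12 windows, the third of Il1rn, and in 1.41% of all windows, and the interferon-response core in 0 of the 12 and in 2.98% of all. The motifs do not overlap one another in the windows shown, and these are matches of letters, not measured binding. The paper reports an IRF3-like sequence in the Il33 promoter region, and binding of phosphorylated IRF3 to that region in a keratinocyte line. The position it gives lies outside both Il33 windows and was not searched.

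In the epidermis, Il33 was lower after DNFB, Il1a and Il1rn were higher, and the other 5 members did not pass the permutation test. The test was a two-sided exact permutation test of log2(normalized CPM + 1 count of the median library), whose smallest possible p with 5 against 5 libraries is 0.00794. At an unadjusted exact p under 0.05, 2 of 8 members were higher and 1 was lower. Among the 25956 genes with at least 10 counts in skin, 4.81% were higher and 2.57% lower by the same rule. Adjusted over those genes, none of the 8 members fell under 0.05 by the exact permutation test, and the smallest adjusted value was 0.479, for Il1a. The edgeR quasi-likelihood test, which covered the 7265 genes past its filter on low counts and 3 of the 8 members, called 3 genes in all (0.0413%) and 0 members, with 1 member, Il1rn, higher at an unadjusted p under 0.05, where 2.95% of genes were higher by that rule. DESeq2 called 1 member, Il1a, as higher, where it called 0.164% of genes higher.

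Il33 (ENSMUSG00000024810, GRCm38 19:29925114-29960718, plus strand) had 2, 6, 6, 50 and 57 counts in acetone libraries 1, 2, 3, 11 and 12, which correspond to 6.04, 16, 10.02, 9.16 and 14.4 normalized CPM. DNFB libraries 4, 5, 6, 13 and 14 held 5, 4, 10, 19 and 4 counts, or 2.79, 6.38, 3.51, 6.98 and 4.19 normalized CPM. Acetone libraries 2, 3, 11 and 12 lay above all 5 DNFB libraries, and the groups overlapped only through acetone library 1, which held 2 counts. The mean was 11.1 ± 4.04 after acetone and 4.77 ± 1.83 normalized CPM after DNFB (SD, n = 5), which the fit put at −1.25 on the log2 scale (exact permutation p = 0.0238, 0.633 after adjustment over all genes). Il33 did not pass edgeR's filter, and DESeq2 gave a log2 fold change of −1.27 ± 0.581 (SE) with an adjusted p of 0.624. The paper reports the opposite direction from its other measurements, with IL-33 RNA and protein significantly higher in DNFB skin and in caerulein pancreas than in controls. Its quantitative PCR methods name dorsal skin, whereas epidermis was sequenced. The reason for the difference was not tested.

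The direction of Il33 in skin was the same in every alternative run, with log2 fold changes from −1.48 to −1.10 when any 1 of the 10 libraries was left out and exact permutation p from 0.0159 to 0.0397. The call was lost with library totals in place of TMM scaling (exact permutation p = 0.444), with laxer filters on low counts (0.0952 and 0.103) and without acetone libraries 11 and 12 (0.0536). Among libraries with label numbers of 10 or under, the mean was 10.7 in 3 acetone and 4.23 normalized CPM in 3 DNFB libraries, and among those over 10 it was 11.8 in 2 acetone and 5.58 in 2 DNFB libraries. Of 8 fibroblast markers, Col1a2 alone was lower by the same exact test, and their summed level ranged from 136 to 633 normalized CPM in acetone and from 112 to 182 in DNFB libraries, with 0 of the 8 at 0 counts. Of the 10 keratinocyte markers, 2 were lower, Krt15 and Itga6. Krt5, Krt14 and Trp63 did not pass (exact permutation p = 0.476, 0.603 and 0.159), and Krt14 had a log2 fold change of 0.40. By the same rule, 2.57% of all genes with at least 10 counts were lower. The part of either cell type in the Il33 values was not tested. In bulk RNA, fewer cells of a type and less RNA per cell cannot be told apart.

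**Figure D1:**
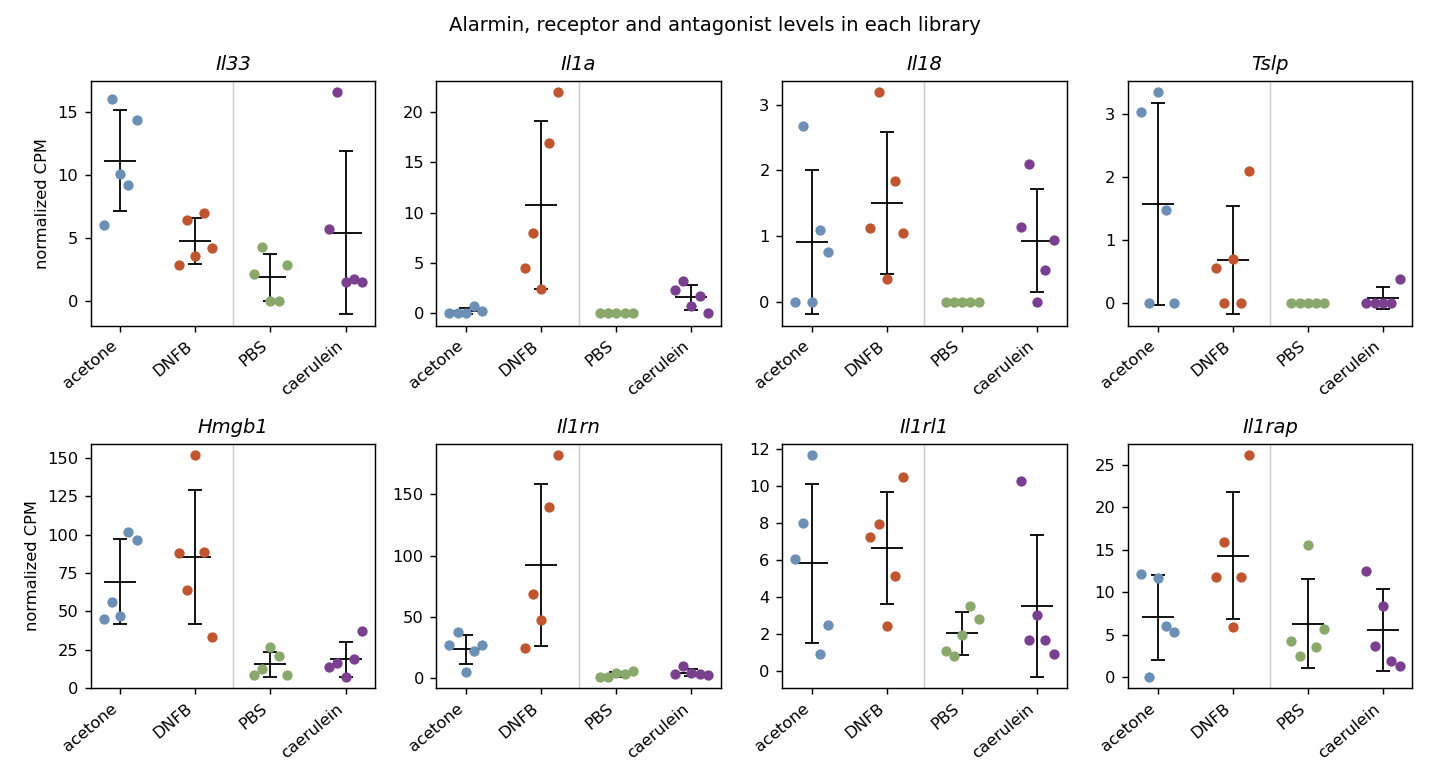
Normalized CPM (vertical axes, linear and different for each gene) of the 8 members in the 20 libraries; points are libraries, black bars the mean and SD of 5, and skin and pancreas were scaled separately. DNFB Il1a values of 2.45 to 21.98 normalized CPM all lie above the acetone values, and the highest caerulein Il33 value of 16.6 stands above the next, 5.70.

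Il1a (ENSMUSG00000027399, 2:129299610-129309972, minus strand), which encodes the IL-1α precursor of keratinocytes and other epithelial cells, moved the other way. Its counts were 0, 0, 0, 4 and 1 in acetone libraries 1, 2, 3, 11 and 12 and 8, 5, 7, 46 and 21 in DNFB libraries 4, 5, 6, 13 and 14. In normalized CPM the acetone libraries lay between 0 and 0.732 and the DNFB libraries at 4.47, 7.97, 2.45, 16.9 and 21.98. The groups did not overlap, which held for 1.08% of genes with at least 10 counts in the direction of DNFB. The mean rose from 0.197 ± 0.319 to 10.8 ± 8.37 normalized CPM (SD, n = 5), with a fitted log2 fold change of 4.47 and an exact permutation p of 0.00794, the smallest the design allows. DESeq2 gave 4.32 ± 1.02 (SE) with an adjusted p of 0.0152. Leaving out any 1 library gave fitted values of 4.09 to 5.38, and the exact permutation p was 0.00794 to 0.0159.

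The antisense gene Gm14023 overlaps Il1a by gene coordinates, and the library protocol does not mark the strand. Gm14023 was assigned 0, 0, 4, 2 and 1 counts in acetone libraries 1, 2, 3, 11 and 12 and 8, 3, 3, 6 and 4 in DNFB libraries 4, 5, 6, 13 and 14. Reads from any exon sequence that the genes share cannot be assigned to one strand, and the share of Il1a counts that came from such reads was not tested.

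Il1rn (ENSMUSG00000026981, 2:24336853-24351494, plus strand), the receptor antagonist, moved in the same direction as Il1a. Acetone libraries 1, 2, 3, 11 and 12 held 27.2, 37.3, 5.01, 22.5 and 27.0 normalized CPM, and DNFB libraries 4, 5, 6, 13 and 14 held 24.6, 68.5, 47.3, 140 and 182. DNFB libraries 5, 6, 13 and 14 lay above every acetone library, and DNFB library 4 lay among them. The mean rose from 23.8 ± 11.8 to 92.4 ± 66.1 normalized CPM (SD, n = 5). The log2 fold change was 1.97 ± 0.667 (SE) in edgeR, with p = 0.00902 before and 0.607 after adjustment over 7265 genes, and the exact permutation p was 0.0317. Leaving out acetone library 3 or DNFB library 5, 13 or 14 raised the exact permutation p to between 0.0556 and 0.0714, with log2 fold changes from 1.61 to 2.10. Without acetone libraries 11 and 12 it was 0.0893, with library totals or a filter of at least 10 counts in total 0.0556, and with the range of label numbers as a covariate 0.05.

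Of the 7 neutrophil markers S100a8 and S100a9, which inflamed keratinocytes can also express, were higher in the DNFB libraries, as were Kit and Hdc among the 7 mast cell markers with at least 10 counts. The mast cell proteases Mcpt4 and Tpsb2 did not pass, with 12 and 11 counts over the acetone and 4 and 4 over the DNFB libraries (exact permutation p = 0.103 and 0.714). Hdc, which makes histamine, went from 0.634 ± 1.16 to 17.6 ± 18.3 normalized CPM (SD, n = 5). The neutrophil markers summed to 3.48 to 30.2 normalized CPM in acetone and 27.4 to 722 in DNFB libraries, and the 8 mast cell markers to 10.3 to 21.2 and 22.8 to 74.3, with 0 of either list at 0 counts in either group. The part of these cells in the Il1a and Il1rn values was not tested.

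The remaining alarmins changed little or were near the counting limit in skin. Il18 (9:50554827-50581840, plus strand), the IL-1 family cytokine that drives interferon-γ production, had 0, 1, 0, 6 and 3 counts in the acetone libraries and 2, 2, 1, 5 and 1 in the DNFB libraries, a fitted log2 fold change of 0.51 (exact permutation p = 0.302). Tslp (chromosome 18), the lymphopoietin that conditions dendritic cells, had 1, 0, 2, 8 and 0 counts after acetone and 1, 0, 2, 0 and 2 after DNFB, a log2 fold change of −0.89 (exact permutation p = 0.460). No change of Tslp was detected, and at 11 and 5 counts over 5 libraries each a fall or a small change could not be seen.

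Hmgb1 (5:149046702-149184489, minus strand) had the highest level per kilobase of exon among the 5 alarmins in every group. Its levels were 45.3, 56.0, 46.8, 102 and 96.5 normalized CPM in acetone libraries 1, 2, 3, 11 and 12 and 88.3, 63.8, 152, 88.6 and 33.5 in DNFB libraries 4, 5, 6, 13 and 14, with a log2 fold change of 0.29 ± 0.563 (SE, edgeR adjusted p = 0.976). The groups overlapped throughout. Of the 31-base words of its transcripts, 23.0% also occur in other annotated genes, mostly processed copies, so the split of its reads is uncertain.

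The receptor chains did not separate the skin groups. Il1rl1 (1:40429570-40465415, plus strand) was at 6.04, 8.001, 11.7, 0.916 and 2.52 normalized CPM in acetone libraries 1, 2, 3, 11 and 12 and at 7.26, 7.97, 2.45, 5.14 and 10.5 in DNFB libraries 4, 5, 6, 13 and 14, with a log2 fold change of 0.45 (exact permutation p = 0.571). The low acetone values were libraries 11 and 12, and without them the log2 fold change was −0.43. Among label numbers of 10 or under the difference in mean log2 level was −0.58, and among those over 10 it was 1.81. Il1rap (16:26581704-26730117, plus strand) was at 12.1, 0, 11.7, 6.04 and 5.29 in the acetone and 11.7, 15.9, 5.96, 11.8 and 26.2 normalized CPM in the DNFB libraries, with a log2 fold change of 1.04 ± 0.591 (SE, edgeR adjusted p = 0.899). Its exact permutation p was 0.119, and it fell to between 0.0238 and 0.0476 with laxer filters or DESeq2's size factors.

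**Figure D2:**
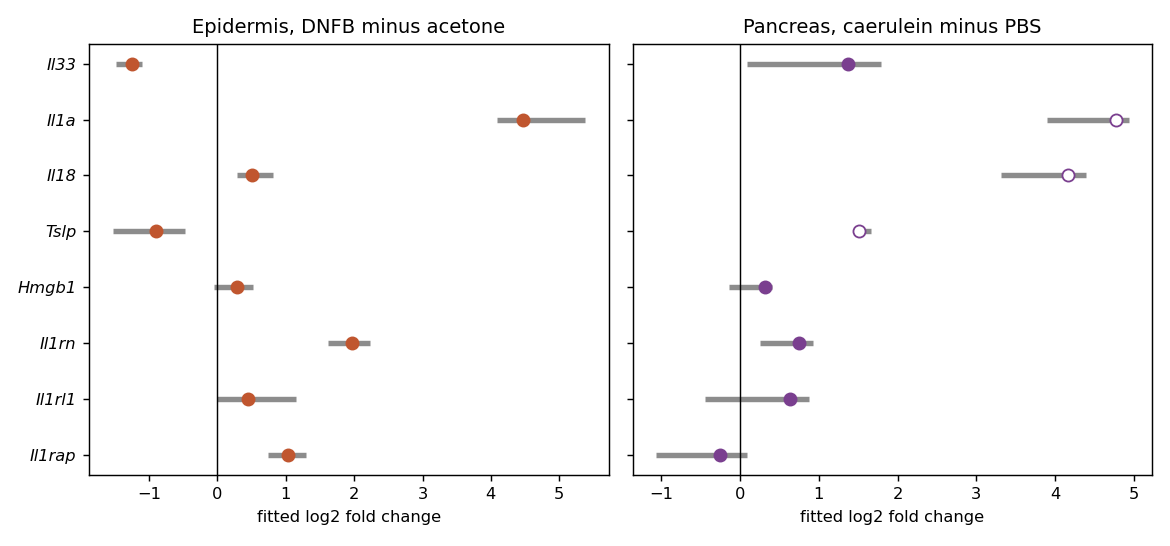
Fitted log2 fold change (horizontal axes) of the 8 members in the epidermis and in the pancreas; points are the fit with all 10 libraries of a tissue, grey bars the range when each library is left out in turn, and open points are members with 0 counts in all PBS libraries, whose fitted value is no bound. Il33 lies at −1.25 in skin and 1.37 in pancreas, and its pancreas bar reaches down to 0.09.

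A ratio within a library needs no scaling between libraries. Il33 was therefore also compared with each other member as log2 of (Il33 count + 0.5) over (other count + 0.5). At low counts the offset of 0.5 weighs on the ratio, which then depends on depth. In the epidermis, Il33 fell relative to 5 of the 7 other members at an exact permutation p under 0.05. The same held relative to 36% of the 7265 genes past the filter, with a median difference of −1.34 over all of them. Relative to Il1a, the log2 ratio was 2.32, 3.70, 3.70, 3.49 and 5.26 in acetone libraries 1, 2, 3, 11 and 12 and −0.63, −0.29, 0.49, −1.25 and −2.26 in DNFB libraries 4, 5, 6, 13 and 14. The ratio was above 0 in every acetone library and below 0 in DNFB libraries 4, 5, 13 and 14. Il1a had 0 counts in acetone libraries 1, 2 and 3, so their ratios reflect the Il33 count and the offset alone. The difference was −4.48 (exact permutation p = 0.00794).

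Relative to Il1rn, the log2 ratio was −1.93, −1.16, 0.89, −1.29 and −0.90 in the acetone and −3.02, −3.27, −3.69, −4.29 and −5.28 in the DNFB libraries. These groups did not overlap either, and the difference was −3.03 (exact permutation p = 0.00794). The share of all genes whose ratios to Il33 did not overlap between the groups is not given here. The differences relative to Il1rap, Hmgb1 and Il18 were −2.37, −1.44 and −1.39, with exact permutation p of 0.0238, 0.0397 and 0.0317. Relative to its receptor Il1rl1 the mean log2 ratio went from 1.27 ± 1.505 to −0.38 ± 0.860 (SD, n = 5), a difference of −1.65 that did not pass (exact permutation p = 0.0794). Relative to Tslp the difference was −0.40 (exact permutation p = 0.770). The calls relative to Il1a and Il1rn held with any 1 library left out, while the number of members passing ranged from 2 to 5. The call relative to Il1rap was lost without DNFB library 4, 5 or 14 (exact permutation p = 0.0556 for each), and those relative to Il18 and Hmgb1 were each lost for 7 of the 10 libraries (0.0556 to 0.0952), the first held without acetone library 1 or 2 or DNFB library 6 and the second without acetone library 11 or DNFB library 5 or 14. The ratio to Il1rl1 passed without acetone library 1 or 3 (exact permutation p = 0.0397 for each).

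**Figure D3:**
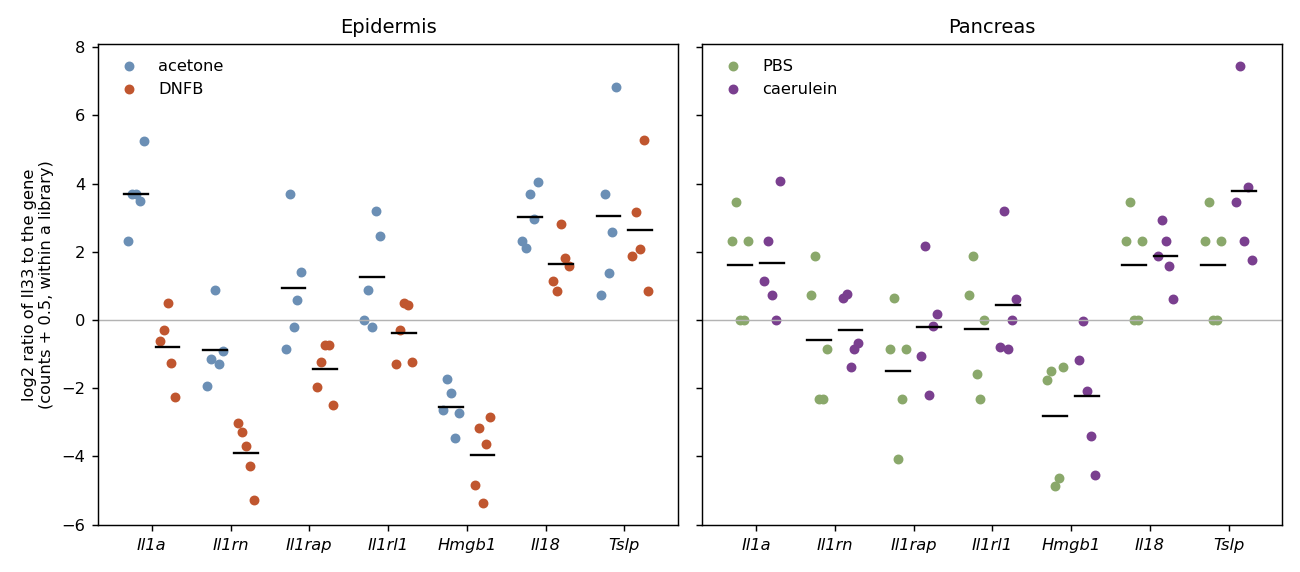
Log2 ratio of Il33 to each other member within a library (vertical axis, counts + 0.5), epidermis at left and pancreas at right; points are libraries and black lines the means of 5. The acetone and DNFB points do not overlap for Il1a and Il1rn, and the PBS and caerulein points overlap for all 7 members.

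In the pancreas, Il33 was highest in 1 caerulein library, and Il1a and Il18 were detected after caerulein only. Il33 had 2, 5, 0, 0 and 2 counts in PBS libraries 7, 8, 15, 16 and 17 and 5, 87, 2, 7 and 8 in caerulein libraries 9, 10, 18, 19 and 20. In normalized CPM these were 2.14, 4.23, 0, 0 and 2.84 against 5.70, 16.6, 1.51, 1.68 and 1.498. Caerulein libraries 9 and 10 lay above all PBS libraries, and the other 3 lay within the PBS range. The means were 1.84 ± 1.84 and 5.39 ± 6.50 normalized CPM (SD, n = 5), with a log2 fold change of 1.37 (exact permutation p = 0.222). Caerulein library 10 held 87 of the 109 counts, and without any 1 library the fitted value ranged from 0.09 to 1.79.

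Il1a had 0 counts in each PBS library and 2, 17, 1, 7 and 0 in caerulein libraries 9, 10, 18, 19 and 20 (exact permutation p = 0.0476). Il18 had 0 counts in each PBS library and 1, 11, 0, 2 and 5 in the caerulein libraries (exact permutation p = 0.0476). Caerulein library 10 held 17 of the 27 Il1a counts and 11 of the 19 Il18 counts, so no fold is given. For each gene, 1 caerulein library was also at 0. With the range of label numbers as a covariate, neither passed (exact permutation p = 0.0667 for each). At an unadjusted exact p under 0.05, 2 of the 7 members with at least 10 counts were higher and 0 lower, and 8.4% of the 19937 genes with at least 10 counts were higher and 3.49% lower by the same rule. After adjustment over all these genes by the exact permutation test, the values for Il1a and Il18 were 0.401. The edgeR test covered Hmgb1 alone of the members and did not call it, with 12.2% of 946 genes called, and DESeq2 called none of the 4 members it gave an adjusted p, while calling 7.44% of genes higher.

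Outside the satellite-like genes the caerulein libraries held 100601 to 609226 counts and the PBS libraries 82322 to 213663. Il1a and Il18 were at 0 counts in every PBS library. Il1a was also at 0 in caerulein library 20, which held 609226 such counts, and Il18 in caerulein library 18, which held 152078. All 12 acinar markers fell with caerulein by the exact permutation test. The duct markers summed to 11.6 to 25.4 normalized CPM after PBS and 49.1 to 348 after caerulein, and the macrophage and leukocyte markers to 16.1 to 123 and 95.8 to 1428, with 0 of these 8 and 8 genes at 0 counts in either group. The part of the change in cell types in the values of the members was not tested. With library totals in place of TMM scaling, the middle of the fold changes over all genes past the filter moved from 0.06 to 1.69 (log2), and Il1rn, Il1rl1 and Il1rap then passed the exact permutation test at log2 fold changes of 2.64, 1.92 and 1.11, the last with its direction turned. In that setting Il33 was at 3.15 (exact permutation p = 0.0635), and Hmgb1 at 2.29 was called by edgeR (adjusted p = 0.0274).

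**Figure D4:**
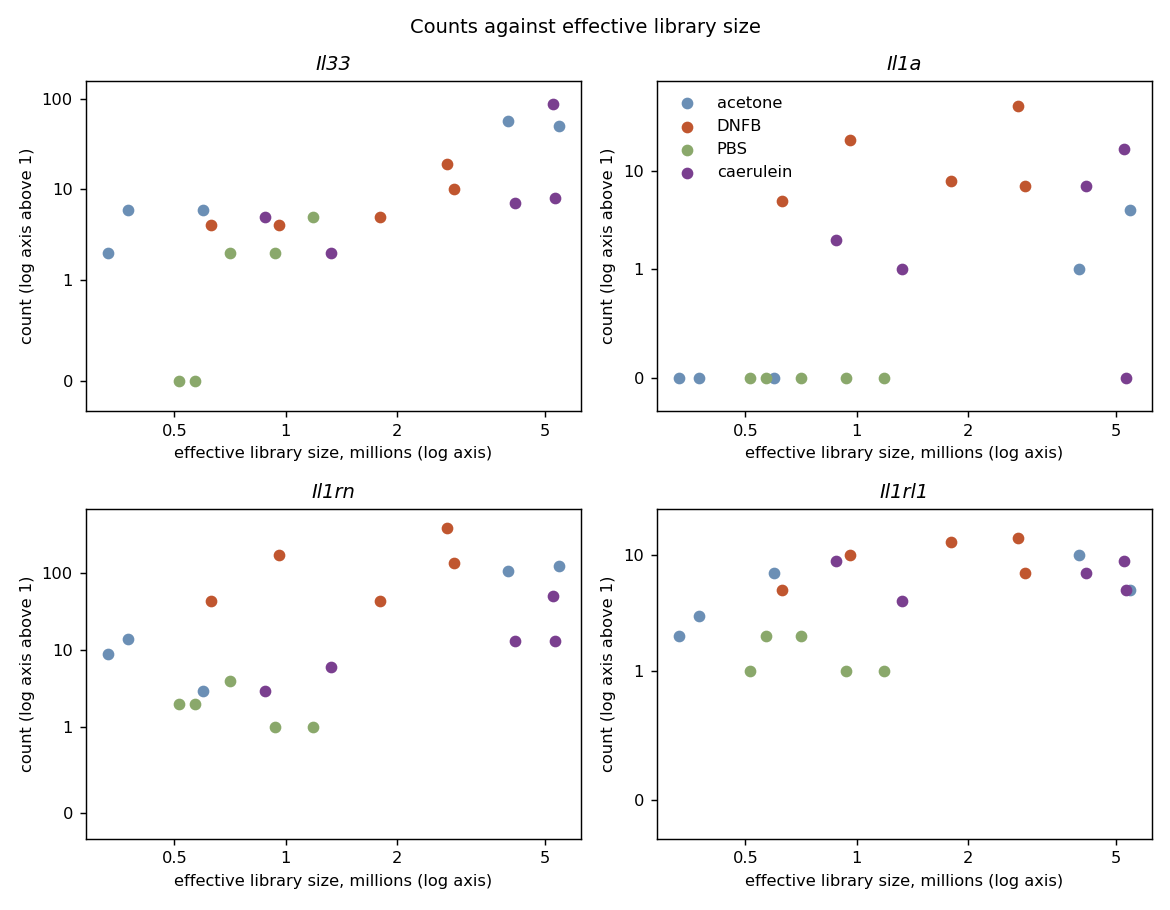
Counts (vertical axes, logarithmic above 1) of Il33, Il1a, Il1rn and Il1rl1 in each library against the effective library size, the library total times its TMM factor (horizontal axes, logarithmic), with skin and pancreas scaled separately. The 5 PBS libraries, at 515908 to 1181883, hold 0 Il1a counts each. Caerulein library 20, at 5341819, also holds 0, and caerulein library 10, at 5252917, holds 17.

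The other members did not pass in the pancreas with the filter and scaling used here. With the laxer filters Il1rn passed at log2 fold changes of 1.40 and 1.61 (exact permutation p = 0.0476 and 0.0238), and with no filter Il1rl1 passed at 1.18 (exact permutation p = 0.0397). Il1rn was at 1.07, 0.846, 3.88, 3.52 and 5.68 normalized CPM in PBS libraries 7, 8, 15, 16 and 17 and at 3.42, 9.71, 4.54, 3.12 and 2.43 in caerulein libraries 9, 10, 18, 19 and 20, with a log2 fold change of 0.75 (exact permutation p = 0.254). Il1rl1 was at 2.04 ± 1.14 after PBS and 3.53 ± 3.84 normalized CPM after caerulein (SD, n = 5), a fitted change of 0.63 on the log2 scale (exact permutation p = 0.595), and its highest value, 10.3, was in caerulein library 9. Il1rap was at 6.31 ± 5.27 and 5.55 ± 4.78 normalized CPM, with a log2 fold change of −0.25 (exact permutation p = 0.698). Hmgb1 was at 15.6 ± 8.24 and 18.8 ± 11.2, with a log2 fold change of 0.32 ± 0.579 (SE, edgeR adjusted p = 0.734). Tslp had 0 counts after PBS and 2 counts, both in library 20, after caerulein, which is under the floor. Relative to Il33 within a library, 0 of the 7 members passed the exact permutation test, where 7.82% of 946 genes did. Il1a, Il18 and Tslp had 0 counts in every PBS library, so their PBS ratios reflect the Il33 count and the offset alone.

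Of the 8 members, 1, Il33, passed the test of a difference in response between the tissues, a share near that of all genes. With all 20 libraries scaled together, the mean log2 level fell by 0.90 with DNFB and was 1.02 higher with caerulein, a difference of −1.92 (exact permutation of labels within each tissue, p = 0.0498). Of the 19120 genes with at least 10 counts in each tissue, 12.3% passed the same test, and DESeq2 gave an adjusted p of 0.0569. The fitted difference was −2.31 with all libraries and ranged from −3.07 to −1.06 with each of the 20 left out. For the other 7 members the exact permutation p lay between 0.122 and 0.987, among them Il1a with a difference of 0.92 (exact permutation p = 0.438) and Il1rl1 with 0.01 (exact permutation p = 0.987).

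Between the controls, acetone epidermis and PBS pancreas scaled together, Il33 was at 5.27 ± 1.59 and 2.05 ± 2.02 normalized CPM (SD, n = 5), a log2 difference of 1.29 (exact permutation p = 0.0238). Il1rn was at 11.5 ± 5.18 and 2.78 ± 1.75, a log2 difference of 2.06 (exact permutation p = 0.0317). Hmgb1 was at 35.4 ± 19.3 and 14.7 ± 5.64, a log2 difference of 1.28 (exact permutation p = 0.0238, edgeR adjusted p = 0.167). All 3 were higher in the epidermis by the exact test, as were 12.4% of the 21342 genes with at least 10 counts. With 1 library left out, the call for Il33 was lost for 8 of the 10 libraries, held without acetone library 3 or PBS library 8, and its log2 difference ranged from 0.50 to 1.54. The call for Il1rn was lost for 8 libraries, all but acetone library 3 and PBS library 17, and that for Hmgb1 for 5, acetone library 1 and PBS libraries 7, 8, 16 and 17. Il1rl1 was at 2.64 ± 1.85 and 1.91 ± 0.827 normalized CPM (exact permutation p = 0.619). With library totals, Il1rl1 passed at a log2 difference of 1.798 (exact permutation p = 0.0238), Il33 was at 3.34 and Hmgb1 at 3.78 was called by edgeR (adjusted p = 0.0194), while the median over all genes past the filter moved from −0.04 to 1.84. Tissue and library composition cannot be told apart in this comparison.

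Over the 4 groups, with all 20 libraries scaled together, Il33 followed the order acetone epidermis, caerulein pancreas, DNFB epidermis and PBS pancreas, with means of 6.53, 8.44, 2.99 and 3.64 normalized CPM. The order is by mean log2 level, and no neighbours in it differed beyond their spread (exact permutation p = 0.841, 0.317 and 0.714). Il1a followed the order DNFB epidermis, caerulein pancreas, acetone epidermis and PBS pancreas, with means of 6.71, 2.55, 0.116 and 0, where caerulein pancreas and acetone epidermis differed (exact permutation p = 0.0476). For Il1rn, DNFB epidermis at 57.8 normalized CPM differed from acetone epidermis at 13.8 (exact permutation p = 0.0238). No neighbours differed for Il18, Tslp, Hmgb1, Il1rl1 or Il1rap, whose exact permutation p between neighbours were 0.159 or more. Per kilobase of exon, the mean level of Il33 in acetone epidermis was 2.26 normalized CPM, against 0.511 for Il1rl1 and 8.11 for Hmgb1. In DNFB epidermis it was 1.04, against 3.40 for Il1a and 10.5 for Il1rn.

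The genes whose levels followed Il33 most closely over the 10 skin libraries were Dsg1a, a desmosomal cadherin of the upper epidermis, Pycard, the inflammasome adaptor, Lgalsl, Ccdc6 and Cyth3. Their Spearman rho with Il33 was 0.952, 0.915, 0.903, 0.867 and 0.855 among 7265 genes, and the 10 points share the acetone and DNFB groups and the same library scaling. Dsg1a had a log2 fold change of −1.85 (edgeR adjusted p = 0.607). In the pancreas Il33 reached 3 counts in 5 libraries only, and no such list was made.

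Among the wider IL-1 family in the epidermis, Il1b and Il36g were higher after DNFB, as Il1a and Il1rn were. Of the 10 IL-1 family ligands, members included, 9 had at least 10 counts, 4 were higher and 1, Il33, was lower at an unadjusted exact p under 0.05, with a median difference of 0.85 in mean log2 level against 0.21 over all 25956 genes. Il1b, the macrophage and neutrophil IL-1, had 17 counts over the acetone and 495 over the DNFB libraries, with groups that did not overlap and a log2 fold change of 5.47 ± 0.968 (SE, edgeR adjusted p = 0.0523). Il36g, the keratinocyte IL-36γ, had 6 and 45 counts, with a log2 fold change of 3.33 (exact permutation p = 0.00794). Of the 9 receptors and decoys, 0 passed in either direction, with a median difference of 0.08. None of the 4 TSLP and HMGB1 receptors with at least 10 counts passed.

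By the rule that put 4.81% of all genes higher and 2.57% lower in skin, of the 22 shared signalling genes 1 was higher (Ikbkg) and 2 were lower (Nfkb2 and Ikbkb), with a median difference of −0.12. Nfkb2, which encodes an NF-κB precursor, was at 7.89 ± 2.87 normalized CPM after acetone and fell to 2.24 ± 1.75 after DNFB (SD, n = 5), with groups that did not overlap (exact permutation p = 0.00794), as held for 0.578% of genes in this direction. Of the 16 genes of cytokine processing and release with at least 10 counts, Pycard alone was lower, at 44.3 ± 14.01 and 28.6 ± 2.81 normalized CPM (exact permutation p = 0.0317). Of the 11 genes of the TLR3/4-TRIF-IRF3 list, Il1b alone passed. Of the 10 type 2 response genes with at least 10 counts, Arg1 and Chil3 were higher, with log2 fold changes of 4.22 ± 0.777 (SE, edgeR adjusted p = 0.0555) and 4.75 (exact permutation p = 0.00794), and none was lower by the exact test. Retnla, a macrophage product of type 2 responses, had 2503 counts after acetone and 11 after DNFB (exact permutation p = 0.119), and DESeq2 called it lower (adjusted p = 0.0271). Of the 5 genes of the HMGB list with at least 10 counts, 0 passed.

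In the pancreas the counts of list genes that passed are to be read against the 8.4% of genes that were higher and the 3.49% that were lower by the same rule. Il1rl2, the IL-36 receptor, was the 1 of 9 receptors and decoys that was higher, at 0.338 ± 0.757 and 4.01 ± 1.91 normalized CPM (exact permutation p = 0.0159). Crlf2, the TSLP receptor chain, had 0 counts after PBS and 26 after caerulein, and Tlr2 had 3 and 177 (exact permutation p = 0.0476 for each). Of the 22 shared signalling genes, 3 were higher (Nfkbia, Tnfaip3 and Ikbkg) and 0 lower, with a median difference of 0.47 against 0.12 over all genes. Nfkbia, which encodes the inhibitor IκBα and is itself an NF-κB target, was at 7.60 ± 9.82 after PBS and rose to 81.0 ± 69.5 normalized CPM after caerulein (SD, n = 5), by 3.33 ± 0.866 on the log2 scale (SE, edgeR adjusted p = 0.0250), and its groups did not overlap, as held for 1.68% of genes. Of the 17 processing genes 2 were higher (Capn2, a calpain, and Tpsb2, a mast cell tryptase), of the 11 TLR3/4-TRIF-IRF3 genes 1 (Cxcl10), of the 10 type 2 response genes 0, and of the 5 HMGB genes 1 (Hmgn1), with none lower.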

How the data were processed

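RNA-seq was made by a modified Smart-Seq2 protocol, which has no molecular identifiers and amplifies before sequencing, so counting limits cover counting error only. Per the paper's methods, the authors mapped reads to mm10 with STAR 2.5.3 and quantified them with RSEM 1.3.1, and the deposited values are expected counts per gene, not normalized. The annotation, strand setting and read filters are not given in the sources used here. The expected counts were rounded, and GENCODE M21 named 55144 of 55471 genes. Each tissue was fitted apart in edgeR 4.0.16 (R 4.3.3): filterByExpr with a minimum count of 10, TMM, the quasi-likelihood test and Benjamini-Hochberg adjustment at 0.05. Members outside the filter have a fitted fold change, with the common dispersion, and an exact permutation test. DESeq2 1.42.0, other scalings, filters, covariates and left-out libraries were alternatives, and the scripts were tested on simulated data. Differences between tissues were fitted on all 20 libraries, and the permutation within tissues was chosen after seeing the data. The 8 members are always named, and from each pathway list at most 3 genes with the smallest p, plus the 5 genes closest to Il33 by Spearman rho. The members and lists were chosen with earlier results of these data known. Upstream windows come from RefSeq (GRCm38.p6).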

Additional observations from a re-analysis of the deposited data

Results flagged for a closer look

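Among 29 sets of 5 libraries with any spread, 1 for each member and group, 3 had a highest or lowest library whose gap to the nearest other exceeded Dixon's 95% limit for log2 normalized CPM, and chance gives about 1 in 20. Il1rap in acetone epidermis was lowest in library 2, which had 0 counts, with a gap of 0.736 of the range. Il1rn in acetone epidermis was lowest in library 3, with 3 counts and a gap of 0.74 of the range. Tslp in caerulein pancreas was found in library 20 alone, at 2 counts, so that the gap was 1.0 of the range. The response of Il33 differed between epidermis and pancreas by −1.92 in mean log2 level (exact permutation of labels within each tissue, p = 0.0498), a test that 12.3% of all genes passed, and DESeq2 gave an adjusted p of 0.0569.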

How the results depend on the processing

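Depth limits most members: 5 of 8 in skin and 7 of 8 in pancreas were outside edgeR's filter. No paired analysis was possible because no label number is shared between groups. The count of genes called in skin, 3, became 0 with library totals and with DESeq2's size factors, 78 with DESeq2, 13 with at least 10 counts in total, 108 with no filter, 5 without the satellite-like genes, 12 with the label range and 10 with Ddx3y as a covariate, 25 with all 20 libraries, 1 without acetone libraries 11 and 12 (chosen after seeing the data), and 0 to 59 without 1 library. In pancreas, 115 (79 higher and 36 lower) became 530 (511 and 19), 61, 735, 987 and 1297 under the same first 5 settings, 60 with Ddx3y and 15 to 280 without 1 library. Between the controls, 185 (88 higher and 97 lower) became 356 with library totals (319 and 37) and 120 to 460 without 1 library. The difference between tissues, 22 genes, became 0 with library totals, 875 with DESeq2 and 0 to 625 without 1 library. Il33 in skin was −1.27 with library totals and with DESeq2, and −1.33 and −1.39 with the laxer filters. It was −1.08 without acetone libraries 11 and 12. The exact permutation test was not passed in any of these edgeR settings, and DESeq2's adjusted p was 0.624. The laxer filters gave unadjusted edgeR p of 0.0376 and 0.0465, and adjusted p of 0.501 and 0.583. Il33 in pancreas was 3.15 with library totals, 1.91 with DESeq2, 1.87 and 2.06 with the laxer filters and 1.88 with DESeq2's size factors. It was 1.125 without the satellite-like genes and 0.11 with Ddx3y as covariate. With Ddx3y as covariate, Il1rl1 in pancreas went from 0.63 to −0.0076. The laxer filters gave unadjusted edgeR p of 0.0299 and 0.0119 (adjusted 0.193 and 0.169), and exact permutation p of 0.230 and 0.1825. Il1rl1 in skin turned to −0.43 without acetone libraries 11 and 12. Il1rap in pancreas turned to 1.11 with library totals, 0.094 with DESeq2, 0.17 and 0.33 with the laxer filters and 0.10 with DESeq2's size factors, and between the controls to 1.33 with library totals. With an offset of 0.1, Il33 relative to Il1a and Il18 in pancreas turned to −0.71 and −0.49. Without 1 library, directions turned within −0.050 to 0.53 (Hmgb1, skin), −0.0055 to 1.15 (Il1rl1, skin), −0.13 to 0.41 (Hmgb1, pancreas), −0.45 to 0.88 (Il1rl1, pancreas), −1.06 to 0.091 (Il1rap, pancreas) and −0.26 to 0.70 (Il1rl1, controls), and for Il33 relative to Tslp in skin within −1.06 to 0.55 and relative to Il1a, Il18 and Il1rn in pancreas within −0.57 to 0.50, −0.16 to 0.71 and −0.16 to 0.89. The 5 members relative to which Il33 fell in skin became 2 to 5. The cause of these changes was not tested.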
